A study of Homo sapiens with 32 samples.

Results

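The genes described here are the WNT ligands, their receptors and their antagonists. They comprise every row of the count table whose Ensembl identifier names a protein-coding gene for a numbered WNT ligand or Frizzled receptor (FZD), the co-receptors LRP5 and LRP6, the receptor kinases ROR1 and ROR2, the R-spondins and their receptors LGR4 to LGR6, the ligand-processing proteins PORCN and WLS, the membrane ubiquitin ligases RNF43 and ZNRF3, the secreted antagonists DKK1 to DKK4 and SFRP1 to SFRP5, the cytoplasmic inhibitors AXIN1, AXIN2, NKD1 and NKD2, and the transcription factors TCF7, TCF7L1, TCF7L2 and LEF1. The choice used names and no measured value, and 51 of the 17788 genes of the table matched it. Another 9 symbols that fall under the same names (RSPO1, RSPO3, SFRP2, SFRP4, SFRP5, WNT1, WNT2, WNT8A and WNT9B) had no row and were not analysed here.

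The data were 32 bulk RNA-seq libraries of MCF10A cells, an immortalized human mammary epithelial cell line that does not form tumours. All libraries came from single-cell clones grown with horse serum, EGF, hydrocortisone, cholera toxin and insulin. Clones 2 and 27 carried the genotype JUNB WT, and clones 1 and 65 the genotype JUNB knock-out, which is called mut here. JUNB is a subunit of the transcription factor AP-1, and in the CRISPR/Cas9-edited clones the study describes a smaller polypeptide at a low level that it takes to be, most likely, a shortened JUNB. Each clone received solvent (time 0, 0.1% BSA in PBS) or recombinant human TGFβ1 at 5 ng/ml for 6, 24 or 72 h, in 2 replications, so that 8 groups of 4 libraries arose. Values for the libraries of a group are given in the order 2-1, 2-2, 27-1 and 27-2 for WT and 1-1, 1-2, 65-1 and 65-2 for mut, where the first number is the clone and the second the replication. A clone with its replication number is called a series. Because each genotype was represented by 2 clones, p-values measure the spread between these libraries, and a property of a single clone cannot be told apart from one of the genotype. The label time 0 of the solvent libraries refers to TGFβ1. According to the methods, solvent was present for 72 h and every dish was collected 3 days after plating, so that the time in culture was shared by all groups.

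WNT ligands are secreted lipid-modified glycoproteins. PORCN attaches the lipid and WLS carries the ligand to the cell surface. On a receiving cell the ligand binds a Frizzled receptor together with LRP5 or LRP6, which stops the AXIN-based complex from marking β-catenin for destruction, and β-catenin then acts with TCF and LEF factors on target genes. Ligands such as WNT5A also act through Frizzled and ROR receptors without β-catenin. Antagonists such as DKK1 bind the co-receptors and SFRP proteins bind the ligands. RNF43 and ZNRF3 remove Frizzled receptors from the surface unless R-spondins bound to LGR receptors hold them back. In the mammary gland, WNT signals take part in duct growth, branching and the upkeep of basal progenitor cells.

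The libraries held between 39702412 and 54651906 counts, and 3 counts, the floor for detection used here, correspond to 0.0549 to 0.0756 CPM (counts per 1000000 counts of the library). The basal mammary keratinocyte markers KRT5, KRT14, KRT17, TP63, ITGB4 and LAMB3 summed to between 10384 and 20339 CPM. Of the listed epithelial markers, CDH1 lay between 147 and 599 CPM and EPCAM between 9.23 and 82.7 CPM. The markers PTPRC and CD3E of white blood cells and VWF of endothelium stayed at or under 0.140 CPM, PLIN1 of adipocytes at or under 0.466 CPM, while CD14, counted among the white blood cell markers and here almost all of their sum, lay between 2.29 and 28.1 CPM. The 3 white blood cell markers of 4 that are in the table summed to 9.98 to 19.0 CPM in WT solvent and 2.33 to 3.43 CPM after 72 h, and to 22.1 to 28.1 CPM and 7.27 to 13.5 CPM in mut, with PTPRC at 0 in 26 of the 32 libraries. JUNB mRNA in solvent was 69.2 and 77.5 CPM in mut clone 1, below the 89.7 to 117 CPM of the WT libraries, and 128 and 172 CPM in mut clone 65, above them. Gene counts cannot show a deletion within the gene, so that they do not check the label. The library mut solvent 1-2 stood apart from the other 3 of its group, with 1413 CPM of FN1, the gene of the matrix protein fibronectin, against 249 to 373 CPM. Among the WNT genes, the library WT solvent 27-2 had the highest DKK1, DKK3 and WNT7A of its group. Counts below are therefore also given without the series 1-2 or 27-2 where this moves them by over 1.5 times. Calls ended by this are marked where the absolute log2 fold change was at least 1 and a group mean at least 1 CPM. Other calls so ended are listed with the fits that left out 1 library.

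Of the 51 WNT genes, 39 had more than 3 counts in all 4 libraries of WT solvent and 40 in all 4 of mut solvent, and 43 met this in at least 1 of the 8 groups. Of the 15 listed ligands, 12 passed the low-count filter of the test, as did 9 of 10 Frizzled receptors, 3 of 4 co-receptors and receptor kinases, 3 of 5 R-spondins and LGR receptors, 4 of 5 secreted antagonists, 3 of 4 cytoplasmic inhibitors, and all of PORCN, WLS, RNF43, ZNRF3 and the TCF/LEF factors. This made 42 tested genes. The other 9 (DKK4, FZD9, LGR5, NKD2, ROR2, RSPO4, WNT16, WNT3A and WNT8B) had at most 12 counts in any library and at most 0.253 CPM, so that LGR5, the stem cell marker, and ROR2 were at or near the floor in every group.

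To compare levels between genes, counts were also divided by the merged exon length of each gene (CPM per kb). On this scale SFRP1 stood highest in WT solvent (196 CPM per kb), followed by FZD6 (61.7), DKK1 (44.2), LRP5 (25.7) and WLS (15.01), so that a ligand-binding antagonist and an LRP-binding antagonist were among the 3 highest members. Among the receptors FZD8 (5.18 CPM per kb), FZD2 (4.75) and FZD1 (2.67) came after FZD6, and LRP6 lay at 5.81 CPM per kb. The highest ligands were WNT9A (2.73 CPM per kb), WNT7A (1.39), WNT7B (0.997), WNT5A (0.859) and WNT10B (0.797). Neighbours such as WNT7B and WNT5A lay closer than the spread of WNT7B over its 4 libraries (SD 0.238 CPM per kb). In mut solvent the order began with SFRP1 (193 CPM per kb), FZD6 (61.3) and LRP5 (25.8), and DKK1 lay at 10.1 CPM per kb. TCF7L2 was the highest of the TCF/LEF factors in WT solvent (5.21 CPM per kb), above LEF1 (1.34), TCF7L1 (1.19) and TCF7 (0.148).

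**Figure D1:**
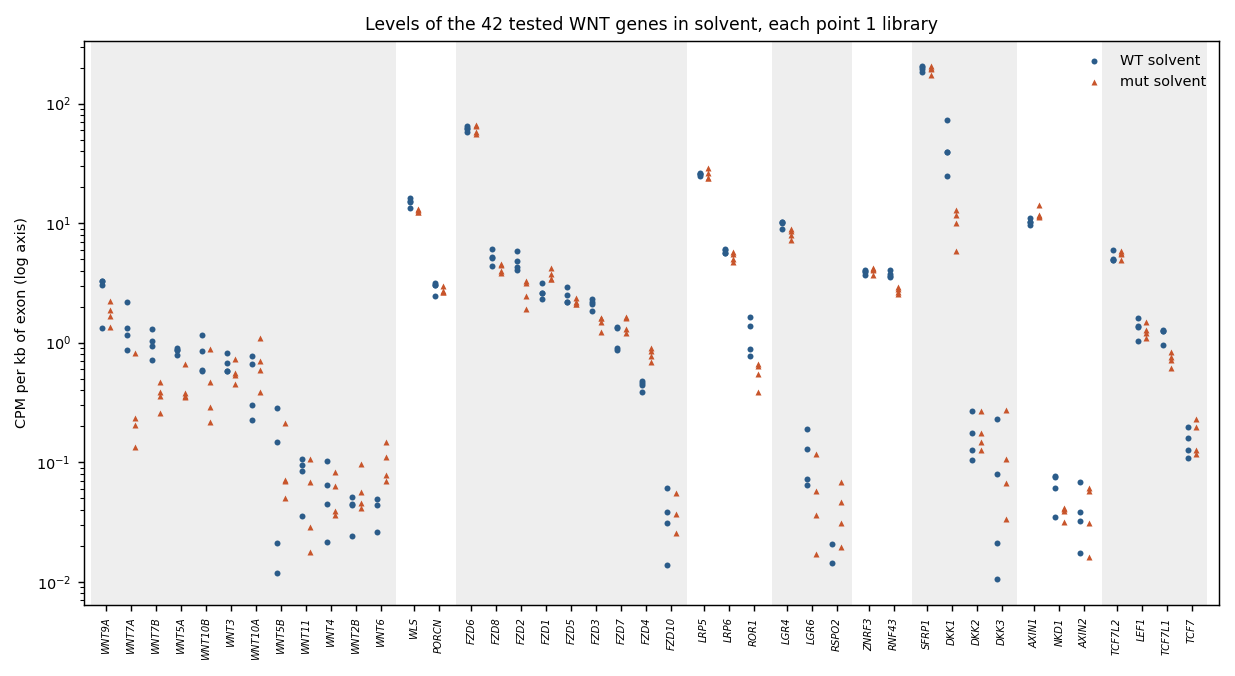
Levels of the 42 tested WNT genes per length (CPM per kb of merged exon length, log axis) in the solvent libraries of WT and mut. Genes are grouped by role and ordered by the WT mean within each role. Each point is a library, and libraries without a count are not drawn on the log axis. By the mean of WT solvent the highest gene is SFRP1 at 196 CPM per kb and the lowest RSPO2 at 0.00878 CPM per kb.

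The summed ligand transcripts were higher after TGFβ1 in both genotypes. Over the 15 ligands of the table the sum per length was 8.34 ± 1.52 CPM per kb (SD, n = 4) in WT solvent, 23.5 ± 3.75 after 6 h, 31.2 ± 1.56 after 24 h and 29.5 ± 2.79 after 72 h. In mut cells it was 5.13 ± 1.05, 8.30 ± 1.42, 9.75 ± 0.960 and 10.3 ± 0.980 CPM per kb. The libraries of all treated WT groups lay above those of WT solvent, and each treated WT group lay above the mut group of its time. WNT9A made up 31.98% of the sum in WT solvent, 63.3% at 6 h and 53.7% at 72 h, and in mut cells 35.2%, 52.3% and 38.7%. The sum is a description without a test. As in all bulk samples, fewer expressing cells and less RNA per cell cannot be told apart.

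In WT cells 4, 5 and 6 of the 12 tested ligands were called higher after 6, 24 and 72 h of TGFβ1 and 0, 2 and 2 lower, and of the 9 tested Frizzled receptors 1, 3 and 2 were called higher and 5, 6 and 5 lower. With TMM factors, a scaling that centres the bulk of genes, the receptors called lower were 4 at each time and those called higher 1, 3 and 3. Of the 42 tested WNT genes, 12 were called at 6 h in the limma-voom test (adjusted p under 0.05), 6 of them higher and 6 lower, which is 28.6% beside 17.0% of all genes. At 24 h 26 genes were called, 12 higher and 14 lower (61.9%, against 52.1% of all genes), and at 72 h 22 genes, 10 higher and 12 lower (52.4%, against 52.2%). The share called at 72 h was close to that of all genes, whereas higher calls made up 10 of the 42 WNT genes beside 13.9% of all genes and lower calls 12 of 42 beside 38.4%. For the earlier times the background was 5.13% and 14.1% higher and 11.9% and 38.0% lower. The median change of the WNT genes was 0.05, 0.06 and -0.07 on the log2 scale at 6, 24 and 72 h, and that of all genes -0.08, -0.18 and -0.19. These 3 comparisons share the WT solvent libraries.

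By role, 4 of 12 ligands were called in WT cells at 6 h, all higher, and 8 of 12 at 72 h, 6 higher (WNT2B, WNT3, WNT5A, WNT7A, WNT7B and WNT9A) and 2 lower (WNT4 and WNT10A). All 9 tested Frizzled receptors were called at 24 h, 3 higher (FZD2, FZD7 and FZD10) and 6 lower (FZD1, FZD3, FZD4, FZD5, FZD6 and FZD8). None of the 4 secreted antagonists was called at any time in WT cells in the main limma-voom fit. Some alternatives called DKK1, SFRP1 or DKK3 higher. DKK1 was called at 72 h with TMM factors, a replicate block by series, sums per clone and without the series 27-2. SFRP1 was called at 24 h with TMM factors, edgeR, DESeq2, the block and without the series 27-2, and at 6 h with DESeq2 and the block. DKK3 was called at 24 and 72 h with edgeR, DESeq2, the block and sums per clone, and at 72 h without the series 27-2. Under TMM factors the median of all genes moved by over 0.1 on the log2 scale at 24 and 72 h (to 0.00 and -0.03), and the calls split into 14 up against 8 down at 24 h and 12 up against 7 down at 72 h. The lower calls of AXIN1, FZD6, FZD8, LRP5, WLS and ZNRF3 at 24 h and of AXIN1, FZD1, LRP6, WNT4 and ZNRF3 at 72 h were lost under this scaling. Higher calls of SFRP1 and WNT2B at 24 h and of DKK1 and FZD7 at 72 h were gained.

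In mut cells fewer WNT genes were called. There were 3 calls at 6 h (WNT9A higher, FZD3 and FZD4 lower, 7.14% of the members beside 7.00% of all genes), 14 at 24 h (10 higher and 4 lower, 33.3% beside 23.8%) and 15 at 72 h (13 higher and 2 lower, 35.7% beside 24.1%). The share of all genes called higher in mut cells was 2.06%, 6.75% and 7.81% at the 3 times, and the share called lower was 4.94%, 17.1% and 16.3%. The median change of the WNT genes at 72 h was 0.29 on the log2 scale, beside -0.09 for all genes. Of the called genes, 9 had a call of the same direction in both genotypes at 72 h (FZD2, FZD4, FZD5, TCF7, TCF7L1, WNT3, WNT5A, WNT7A and WNT9A), which are 9 of the 22 called in WT and 9 of the 15 called in mut, and 0 had opposite calls. Of all genes called at 72 h, 36.9% of those in WT and 80.1% of those in mut had a call of the same direction in the other genotype. With a replicate block by series, the pairing that the clone and replication numbers give, 8 WNT genes instead of 3 were called in mut cells at 6 h (FZD1, LGR4, PORCN, TCF7 and TCF7L1 in addition). At 6 h in mut cells the count was 7 without the library mut 6 h 1-2 and 1 without mut solvent 1-2, mut 6 h 65-1 or mut 6 h 65-2. At 24 h it was 8 without the series 1-2, 7 without mut 24 h 1-1 and 9 without mut solvent 65-2, and with TMM factors the split at 24 h became 13 higher and 2 lower.

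**Figure D2:**
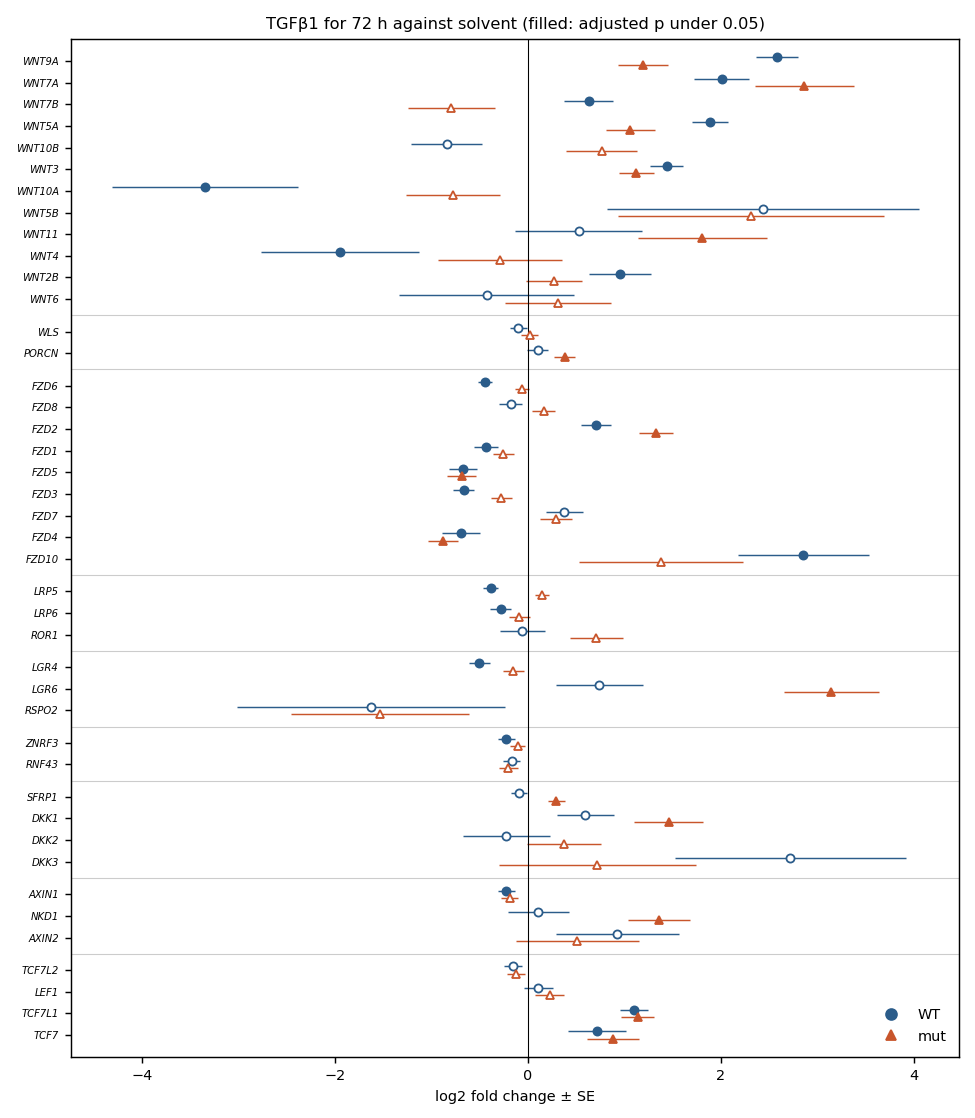
Change of each tested WNT gene after 72 h of TGFβ1 against solvent (log2 fold change ± SE of the limma-voom fit, x axis) in WT and mut cells, with filled symbols for adjusted p under 0.05. Among the ligands WNT9A, WNT7A, WNT5A and WNT3 lie to the right in both genotypes, and WNT10A lies at -3.35 in WT.

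The ligands called higher in both genotypes at 72 h were WNT3, WNT5A, WNT7A and WNT9A. Their promoters are shown because these 4 genes moved together. The sequences are the 250 bases before the start site from RefSeq on GRCh38.p14, written 5′ to 3′ on the gene's strand, and cover chr1:227947933-227948182 for WNT9A, chr3:13880072-13880321 for WNT7A, chr17:46818693-46818942 for WNT3 and chr3:55481399-55481648 for a start site of WNT5A, all on the minus strand. Capitals mark the element GTCTG or its reverse complement CAGAC, a core sequence recognised by the SMAD factors of the TGFβ pathway.
WNT9A: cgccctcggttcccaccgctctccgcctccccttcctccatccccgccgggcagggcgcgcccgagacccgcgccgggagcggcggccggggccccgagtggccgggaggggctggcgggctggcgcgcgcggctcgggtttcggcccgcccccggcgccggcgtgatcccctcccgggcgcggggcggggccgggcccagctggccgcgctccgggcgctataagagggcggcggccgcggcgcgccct
WNT7A: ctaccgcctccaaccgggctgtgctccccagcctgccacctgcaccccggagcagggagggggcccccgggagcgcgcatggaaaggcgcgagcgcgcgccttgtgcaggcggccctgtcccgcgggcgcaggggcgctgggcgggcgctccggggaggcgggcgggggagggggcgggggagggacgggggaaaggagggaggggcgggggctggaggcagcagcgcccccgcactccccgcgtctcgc
WNT3: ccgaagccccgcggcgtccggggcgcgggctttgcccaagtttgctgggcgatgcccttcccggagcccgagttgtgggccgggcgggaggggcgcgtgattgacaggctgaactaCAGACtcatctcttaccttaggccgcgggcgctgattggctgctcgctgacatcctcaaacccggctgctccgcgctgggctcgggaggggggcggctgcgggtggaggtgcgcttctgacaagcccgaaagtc
WNT5A: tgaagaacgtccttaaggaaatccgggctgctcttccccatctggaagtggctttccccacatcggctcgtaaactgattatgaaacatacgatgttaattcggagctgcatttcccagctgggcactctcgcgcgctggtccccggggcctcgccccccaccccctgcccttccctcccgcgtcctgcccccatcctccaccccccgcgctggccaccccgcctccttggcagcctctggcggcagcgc
The WNT3 promoter holds 1 such element, and those of WNT9A, WNT7A and this site of WNT5A hold 0 in the 300 bases from 250 before to 50 after the start. Promoters were given for 33 of the 51 WNT genes, with 44 start sites. The SMAD element was present in 22 of these 44 (50.0%) beside 45.3% of all 35116 promoters of this length. The AP-1 element TGANTCA was present in 1 of 44 (2.27%, RNF43) beside 7.71% of all promoters, and the TCF/LEF element CTTTGAT in 0 of 44 beside 2.62%, each on both strands. The promoters of WNT9A and WNT7A were rich in G and C (84.4% and 80.4% of the bases shown, beside 68.8% for WNT3 and 64.4% for WNT5A). These letters are a description of the windows and no binding was measured.

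WNT9A, a ligand of the β-catenin branch known from joint formation, lies on chromosome 1 (GRCh38, 227918656 to 227947932, minus strand) next to WNT3A, which was not tested. Its WT solvent libraries held 13.2, 5.26, 12.1 and 13.2 CPM, those at 6 h 57.9, 73.3, 47.7 and 58.9 CPM, those at 24 h 69.2, 79.3, 70.1 and 62.8 CPM and those at 72 h 64.9, 79.3, 63.2 and 46.6 CPM. Every treated WT library lay above every WT solvent library, and the level was already near its later range at 6 h, with log2 fold changes (± SE, as for all changes given in this form) of 2.50 ± 0.22 after 6 h, 2.75 ± 0.22 after 24 h and 2.58 ± 0.22 after 72 h (adjusted p = 3.03e-08, 8.03e-11 and 2.88e-10). The solvent library 2-2 was the lowest of its group. In mut cells the libraries held 5.46, 8.89, 7.58 and 6.70 CPM in solvent, 22.4, 12.1, 17.2 and 18.4 after 6 h, 19.2, 20.8, 14.7 and 17.4 after 24 h and 16.7, 18.6, 13.8 and 15.1 after 72 h. All treated mut libraries exceeded the solvent ones, and all were below every WT library of the same time. The mut changes were 1.29 ± 0.26, 1.35 ± 0.26 and 1.19 ± 0.26 (adjusted p = 0.00342, 0.000436 and 0.00119). Mut cells were lower than WT by -1.78 ± 0.19 after 6 h, -1.97 ± 0.19 after 24 h and -1.95 ± 0.19 after 72 h (adjusted p = 6.65e-08, 6.88e-09 and 8.17e-09), and no call was made in solvent (-0.56 ± 0.28, adjusted p = 0.205). DESeq2 called WNT9A lower in mut in solvent as well. The change after TGFβ1 itself differed between the genotypes at 24 h (mut minus WT -1.40 ± 0.34, adjusted p = 0.00952) and 72 h (-1.39 ± 0.34, adjusted p = 0.00783). At 6 h this interaction was called lower by DESeq2 and was not called by limma-voom or edgeR.

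WNT7A, a ligand expressed by epithelia, rose in both genotypes from different levels. In WT the libraries held 6.06, 5.24, 3.94 and 9.98 CPM in solvent, 12.7, 11.8, 10.3 and 23.1 after 6 h, 22.9, 22.6, 19.999 and 32.7 after 24 h and 21.03, 25.98, 17.5 and 31.8 after 72 h. In mut they held 1.06, 3.68, 0.926 and 0.603 CPM in solvent, 3.08, 1.28, 2.52 and 2.41 after 6 h, 8.08, 4.98, 6.20 and 5.17 after 24 h and 9.005, 10.6, 6.19 and 9.34 after 72 h. The solvent library 1-2, which also had high FN1, was the highest of the mut solvent group, and every mut library was below every WT library of its time. The WT change was 1.24 ± 0.30 after 6 h, 2.04 ± 0.29 after 24 h and 2.01 ± 0.29 after 72 h (adjusted p = 0.00502, 9.14e-07 and 1.48e-06). In mut the gene was called at 24 h (2.33 ± 0.53, adjusted p = 0.00202) and 72 h (2.87 ± 0.51, adjusted p = 0.000118) and not at 6 h (0.91 ± 0.59, adjusted p = 0.378). Mut cells were lower than WT in solvent (-2.29 ± 0.53, adjusted p = 0.00376), at 6 h (-2.62 ± 0.40), 24 h (-2.001 ± 0.29) and 72 h (-1.43 ± 0.25, adjusted p = 4.87e-05). The interaction of WNT7A was not called (at 72 h 0.86 ± 0.58, adjusted p = 0.371).

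WNT5A, the main ligand of the branch that acts without β-catenin, held 6.17, 6.25, 5.66 and 6.50 CPM in WT solvent, 8.49, 7.31, 4.90 and 9.75 after 6 h, 14.6, 15.7, 12.6 and 19.01 after 24 h and 22.004, 28.5, 18.7 and 22.4 after 72 h. In mut cells it held 2.56, 4.78, 2.71 and 2.53 CPM in solvent, 3.22, 1.83, 2.08 and 1.60 after 6 h, 3.79, 2.65, 4.41 and 2.36 after 24 h and 7.66, 6.06, 6.36 and 5.19 after 72 h. In WT the groups separated from 24 h on, while in mut the 72 h libraries alone lay above all solvent libraries, and mut solvent 1-2 was again the highest of its group. The WT change was called at 24 h (1.31 ± 0.19, adjusted p = 1.79e-06) and 72 h (1.88 ± 0.19, adjusted p = 3.75e-09), and the mut change at 72 h (1.06 ± 0.25, adjusted p = 0.00269). Mut was lower than WT in all 4 states, by -1.02 ± 0.26 in solvent, -1.82 ± 0.28 after 6 h, -2.25 ± 0.23 after 24 h and -1.84 ± 0.18 after 72 h (adjusted p = 0.00811, 1.9e-05, 2.76e-08 and 7.69e-09). The interaction at 24 h was called (-1.22 ± 0.35, adjusted p = 0.0258), but not without the library mut solvent 1-2 (-1.02, adjusted p = 0.0876), mut 24 h 1-2 (-1.13, adjusted p = 0.0619), mut 24 h 65-2 (-1.08, adjusted p = 0.059) or the whole series 1-2 (-0.92, adjusted p = 0.184).

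WNT3, a ligand of the β-catenin branch, held 3.15, 3.63, 3.15 and 4.42 CPM in WT solvent, 10.7, 10.9, 9.46 and 12.7 after 24 h and 9.18, 11.7, 8.37 and 9.30 after 72 h. In mut cells it held 2.43, 3.95, 2.90 and 3.02 CPM in solvent, 6.09, 4.98, 5.64 and 5.62 after 24 h and 6.28, 7.60, 5.36 and 7.17 after 72 h. The libraries at 24 and 72 h lay above those of solvent in both genotypes, and solvent levels of WT and mut overlapped. In WT the change of WNT3 was 1.62 ± 0.17 after 24 h and 1.44 ± 0.17 after 72 h (adjusted p = 6.04e-09 and 6.68e-08), and the mut change 0.88 ± 0.19 and 1.12 ± 0.18 (adjusted p = 0.0011 and 2.93e-05). Mut was lower than WT by -0.55 after 6 h, -0.96 after 24 h and -0.53 after 72 h on the log2 scale, all called.

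WNT7B, an epithelial ligand of the β-catenin branch, was lower in mut cells throughout. In WT the libraries held 5.25, 3.65, 4.78 and 6.57 CPM in solvent, 9.81, 11.7, 5.18 and 12.9 after 6 h, 13.9, 10.6, 8.97 and 13.2 after 24 h and 6.32, 6.33, 6.94 and 11.9 after 72 h. In mut they held 1.31, 1.98, 2.38 and 1.81 CPM in solvent, 1.26, 1.06, 1.68 and 1.37 after 6 h, 1.14, 1.05, 1.93 and 1.17 after 24 h and 0.984, 0.918, 1.23 and 1.14 after 72 h. No mut library reached a WT library of any time. The difference was -1.43 ± 0.34 in solvent, -2.81 ± 0.36 after 6 h, -3.15 ± 0.37 after 24 h and -2.86 ± 0.39 after 72 h (adjusted p = 0.00499, 1.36e-06, 1.95e-07 and 1.64e-06). In WT the gene rose at 6 h (0.93 on the log2 scale), at 24 h (1.20 ± 0.24, adjusted p = 0.000101) and at 72 h (0.63), the last call being lost without the series 27-2 or 1-2. In mut cells no change passed the test (-0.44, -0.51 and -0.79). The interaction was called at 24 h (-1.71 ± 0.50, adjusted p = 0.0302). It missed the threshold with sums per clone (adjusted p = 0.0509), without the series 1-2 (-1.58, adjusted p = 0.126) and without any one of 7 libraries (WT solvent 2-2, mut solvent 1-2, 65-1 and 65-2, mut 24 h 1-1, 1-2 and 65-2), with adjusted p-values of 0.0524 to 0.0681. At 72 h the interaction of WNT7B was not called in the main fit. It was called lower at that time with edgeR, DESeq2, the replicate block by series and without the series 27-2.

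WNT10A and WNT6 are neighbours on chromosome 2 (GRCh38, 218880852 to 218899581 and 218859805 to 218874233, plus strand), and both were higher in mut cells after TGFβ1. WNT10A, a ligand of skin and tooth development, held 2.27, 1.94, 0.881 and 0.652 CPM in WT solvent, 1.49, 1.15, 0.779 and 0.254 after 6 h, 0.521, 0.674, 0.659 and 0 after 24 h and 0.233, 0.137, 0.132 and 0.0405 after 72 h. In mut it held 3.17, 2.07, 1.73 and 1.13 CPM in solvent, 2.38, 3.23, 1.89 and 1.90 after 6 h, 1.99, 2.44, 1.23 and 1.78 after 24 h and 0.984, 1.16, 1.16 and 1.07 after 72 h. In WT solvent clone 2 lay above clone 27, and at 72 h all WT libraries lay below all mut libraries. The WT change was called at 24 h (-2.51 ± 0.82, adjusted p = 0.0116) and 72 h (-3.35 ± 0.96, adjusted p = 0.0046). The library WT 24 h 27-2 had no count, and without it the change at 24 h was -1.02, adjusted p = 0.117. Without the whole series 27-2 the call at 24 h held at a smaller change (-1.31, adjusted p = 0.0188), as it did with edgeR (-1.45, adjusted p = 0.0314) and DESeq2 (-1.45, adjusted p = 0.0118), and sums per clone ended it (-1.49, adjusted p = 0.0844). Mut exceeded WT at 24 h by 3.03 ± 0.80, adjusted p = 0.00375, by 1.54 without the library WT 24 h 27-2 and by 1.92, adjusted p = 0.00778 with edgeR, and at 72 h by 3.14 ± 0.96, adjusted p = 0.0105. The call at 6 h (1.56 ± 0.54, adjusted p = 0.037) was lost without WT 6 h 2-2, 27-1 or 27-2 or mut 6 h 1-1 or 1-2, with values from 1.03, adjusted p = 0.162 (without WT 6 h 27-2) to 1.79, adjusted p = 0.0512 (without WT 6 h 2-2). It was also lost with edgeR, without the low-count filter, with sums per clone and without the series 1-2 (adjusted p = 0.0543 to 0.105). The interaction of WNT10A was not called at 72 h (2.57 ± 1.08, adjusted p = 0.118), while a replicate block by series gave adjusted p = 0.00519. DESeq2 and the fit without the series 27-2 also called this interaction higher. WNT6 stayed under 1 CPM in every library, with 0.350, 0.365, 0.241 and 0.421 CPM in mut at 24 h and 0.332, 0, 0 and 0.0426 CPM in WT, and mut was called higher at 6, 24 and 72 h (2.51, 3.28 and 2.57 on the log2 scale).

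WNT10B, a ligand expressed in the embryonic mammary line, held 2.23, 1.54, 3.02 and 1.51 CPM in WT solvent, 0.853, 0.409, 0.951 and 0.766 after 24 h and 1.26, 0.686, 1.76 and 1.05 after 72 h. In mut it held 2.31, 1.21, 0.758 and 0.563 CPM in solvent, 1.97, 1.39, 1.01 and 0.936 after 24 h and 2.76, 1.87, 1.16 and 1.45 after 72 h. The 24 h libraries of WT all lay below those of WT solvent, whereas in mut the solvent and treated libraries overlapped and clone 1 lay above clone 65 at 24 h. The WT drop at 24 h was called (-1.47 ± 0.42, adjusted p = 0.00402), and the mut change was 0.30 ± 0.40 after 24 h without a call. The interaction was called at 24 h (1.77 ± 0.58, adjusted p = 0.04997) and 72 h (1.60 ± 0.52, adjusted p = 0.0425). Both calls lay close to the threshold. At 24 h the adjusted p was 0.0600 or more without any one of 12 of the 16 libraries compared (all but WT solvent 2-2 and 27-2, mut solvent 1-1 and mut 24 h 65-2), up to 0.122 without mut solvent 65-2. At 72 h it was 0.0548 or more without any one of 10 (all but WT solvent 2-2 and 27-2, WT 72 h 27-1, mut solvent 1-1, and mut 72 h 65-1 and 65-2), up to 0.115. Of the other alternatives, the replicate block by series kept both calls, and TMM factors, edgeR, DESeq2, no low-count filter, sums per clone and the omission of the series 27-2 or 1-2 ended both (adjusted p = 0.0553 to 0.213 at 24 h and 0.0505 to 0.189 at 72 h).

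Among the other ligands, WNT11, which acts mainly without β-catenin, stayed under 1 CPM and was called higher in mut cells at 24 h (2.15) and 72 h (1.81), calls lost in 4 and 5 of 8 fits that each left out 1 library. WNT2B was called higher (0.95) and WNT4, a ligand of mammary side branching, lower (-1.95) in WT at 72 h, both at under 1.3 CPM. The WNT4 call was lost with TMM factors and under a block by series (adjusted p = 0.0914). WNT5B, a close relative of WNT5A, was called in no comparison of the main fit, and its libraries split by clone. In WT it held 0.0901, 0.0504, 0.629 and 1.20 CPM in solvent and 0.233, 0.229, 6.13 and 9.12 CPM after 72 h, so that clone 27 rose from a mean of 0.917 to 7.63 CPM and clone 2 from 0.0702 to 0.231 CPM. In mut it held 0.212, 0.898, 0.295 and 0.302 CPM in solvent and 1.66, 1.14, 2.18 and 2.95 CPM after 72 h, and all 72 h libraries exceeded the solvent ones. The change was 2.44 ± 1.62, adjusted p = 0.212 in WT and 2.31 ± 1.38, adjusted p = 0.235 in mut at 72 h. Under a replicate block by series, which compares each series with itself, it was called in WT at 6, 24 and 72 h (adjusted p = 0.00355, 1.97e-07 and 2.62e-07) and in mut at 24 and 72 h (0.000787 and 3.69e-05). With edgeR and with DESeq2, WNT5B was called higher in WT at 24 and 72 h. WNT5B overlaps FBXL14 on the opposite strand.

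Of the ligand-processing genes, PORCN was called higher at 24 h in WT (0.33) and at 24 and 72 h in mut (0.38 and 0.38). WLS was called lower in WT at 24 h (-0.27), and the call was lost with TMM factors and without the library WT 24 h 27-1. Neither differed between the genotypes by a call at any time. Both were above 14 CPM in every library.

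Frizzled receptors moved in both directions. FZD2 rose in both genotypes, with 15.4, 18.4, 16.2 and 21.9 CPM in WT solvent and 28.6, 31.4, 23.8 and 32.2 CPM after 72 h, and 11.9, 12.3, 9.37 and 7.18 CPM in mut solvent and 29.2, 22.3, 23.6 and 24.8 CPM after 72 h. Solvent and 72 h libraries did not overlap in either genotype. The change at 72 h was 0.71 ± 0.16, adjusted p = 0.000436 in WT and 1.33 ± 0.18, adjusted p = 2.38e-06 in mut, and mut was called lower than WT in solvent (-0.84), at 6 h (-0.84) and at 24 h (-0.78) and not at 72 h (-0.21). FZD10 rose in WT at 6, 24 and 72 h (2.60, 2.92 and 2.85), from 0.0450 to 0.201 CPM in solvent to 0.320 to 1.52 CPM after 72 h. Its mut libraries held 0.0757 to 0.626 CPM after 72 h and mut was called lower than WT after TGFβ1 (-2.74, -2.11 and -2.19).

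FZD4, a receptor of retinal vessel development, fell in both genotypes and was higher in mut. The WT libraries held 3.38, 3.53, 3.25 and 2.86 CPM in solvent and 1.84, 1.80, 1.79 and 1.73 CPM after 6 h, and the mut libraries 5.73, 6.33, 5.14 and 6.66 CPM and 3.995, 5.64, 3.48 and 3.25 CPM. At both times every mut library exceeded every WT library, and the difference at 6 h was 1.13 ± 0.20, adjusted p = 0.000111. The drop was called at all 3 times in WT (-0.86, -0.67 and -0.69) and in mut (-0.59, -0.86 and -0.88). With sums per clone the calls at 6 h were lost in both genotypes, and the mut call at 6 h was also lost with edgeR and DESeq2. FZD4 overlaps PRSS23 on the opposite strand. FZD1 was also higher in mut in all 4 states (0.48 to 0.73 on the log2 scale) and was called lower after TGFβ1 in WT (-0.53, -0.53 and -0.44), the last of these calls being lost with TMM factors.

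FZD3, a receptor of axon guidance and tissue polarity, fell in WT at all 3 times (-0.51, -0.69 and -0.67) and in mut at 6 and 24 h (-0.37 and -0.43). The mut call of FZD3 at 6 h was lost with TMM factors, edgeR, DESeq2 and sums per clone. FZD5 fell in WT at all 3 times (-0.50, -0.69 and -0.68) and in mut at 24 and 72 h (-0.39 and -0.69). The mut call of FZD5 at 24 h was lost with TMM factors, edgeR, DESeq2, no low-count filter and sums per clone. FZD6, the highest Frizzled per length, held 233 to 265 CPM in WT solvent and 172 to 192 CPM after 72 h, and 226 to 268 and 228 to 242 CPM in mut. Its WT drop (-0.44 ± 0.07, adjusted p = 1.01e-05) stood beside a mut change of -0.06 ± 0.07, and the interaction at 72 h was called (0.38 ± 0.10, adjusted p = 0.015), but not with TMM factors, edgeR or sums per clone. FZD7 rose in WT at 24 h (0.60), and FZD8 was called lower in WT at 6 and 24 h (-0.40 and -0.32), which did not hold with TMM factors.

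**Figure D3:**
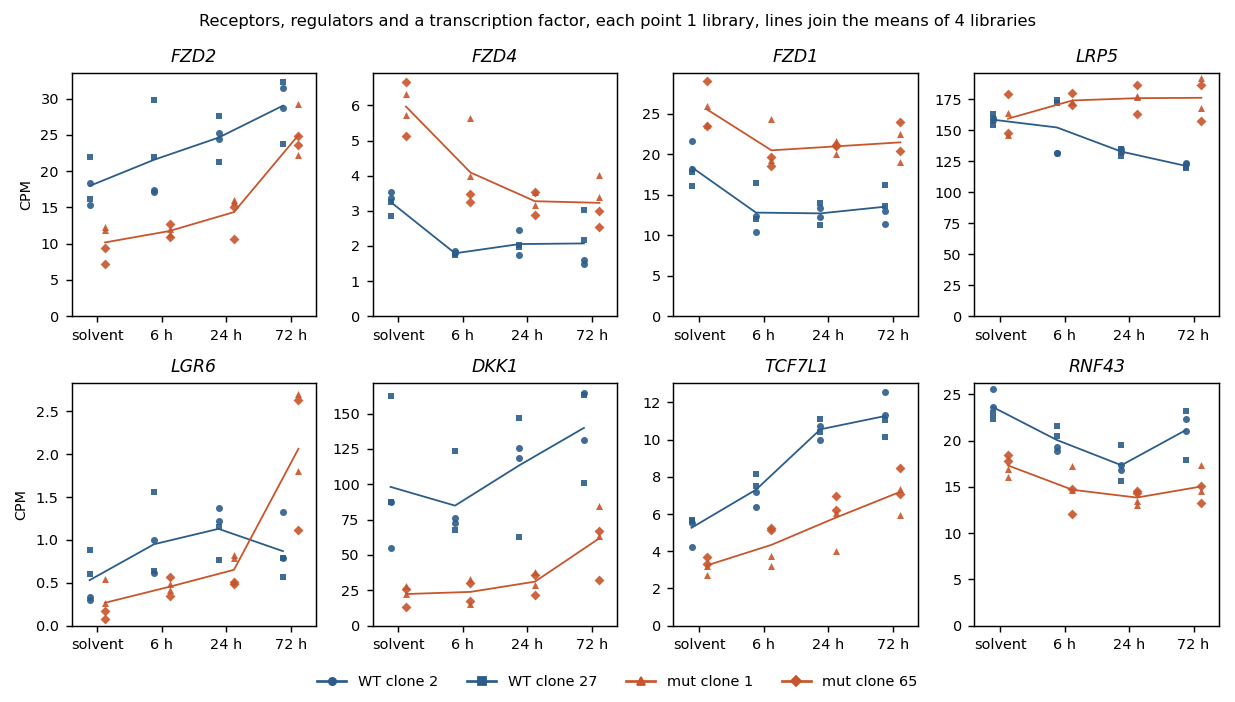
CPM of FZD2, FZD4, FZD1, LRP5, LGR6, DKK1, TCF7L1 and RNF43 in every library at solvent (0 h) and after 6, 24 and 72 h of TGFβ1 (x axis), with symbols by clone and the mean of each group as a line. DKK1 lies at 12.95 to 28.4 CPM in mut solvent and at 54.7 to 163 CPM in WT solvent, and LGR6 reaches 1.12 to 2.71 CPM in mut at 72 h.

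Of the co-receptors, LRP5 fell in WT and was not called in mut at 72 h. It held 159.8, 158, 163 and 154 CPM in WT solvent and 122, 123, 119 and 120.1 CPM after 72 h, and 164, 146, 179.5 and 148 CPM in mut solvent and 192, 168, 187 and 158 CPM after 72 h. All WT libraries at 72 h lay below all WT solvent libraries and below all mut libraries of that time, and the solvent libraries of the genotypes overlapped. The change of LRP5 at 72 h was -0.39 ± 0.08, adjusted p = 0.000149 in WT and 0.15 ± 0.08, adjusted p = 0.178 in mut. With TMM factors and with DESeq2 it was called higher in mut at 24 and 72 h. The lower call in WT at 24 h (-0.26) was lost with TMM factors, edgeR and DESeq2. The interaction was called at 24 h (0.40 ± 0.11, adjusted p = 0.0199) and 72 h (0.53 ± 0.11, adjusted p = 0.00201). The call at 24 h was lost with TMM factors, edgeR, DESeq2 and sums per clone. It was also lost without the library mut solvent 1-2 (0.36, adjusted p = 0.0508) or the series 1-2. LRP6 was called lower in WT at 72 h (-0.28), a call lost with TMM factors. ROR1, a receptor kinase that binds WNT5A, held 9.19, 5.89, 11.1 and 5.17 CPM in WT solvent and 2.60, 3.66, 4.44 and 4.32 CPM in mut solvent, and at 6 h 13.4, 9.55, 11.2 and 6.37 and 4.65, 4.68, 4.20 and 5.28 CPM. Mut lay below WT at both times without overlap (-1.04 ± 0.27, adjusted p = 0.00893 in solvent and -1.04 ± 0.24, adjusted p = 0.00222 after 6 h), and was not called lower at 24 h (-0.34) or 72 h (-0.28). ROR1 overlaps ROR1-AS1 on the opposite strand.

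LGR6, an R-spondin receptor, rose late in mut cells. Its mut libraries held 0.550, 0.270, 0.168 and 0.0804 CPM in solvent and 2.71, 1.80, 2.63 and 1.12 CPM after 72 h, and its WT libraries 0.338, 0.302, 0.881 and 0.602 CPM in solvent, 1.37, 1.23, 1.15 and 0.766 CPM after 24 h and 0.793, 1.33, 0.571 and 0.789 CPM after 72 h. The mut groups did not overlap, while WT solvent and WT 72 h did. The mut change at 72 h was 3.14 ± 0.49, adjusted p = 2.11e-05, and mut exceeded WT at that time by 1.23 ± 0.33, adjusted p = 0.00432. The WT change was called at 24 h (1.14 ± 0.43, adjusted p = 0.0267) and lost that call without WT solvent 2-1 or 2-2 or WT 24 h 2-1 or 2-2, with a lowest value of 0.93, adjusted p = 0.0911 (without WT solvent 2-2), and with sums per clone (1.16, adjusted p = 0.0614). The interaction at 72 h was 2.41 ± 0.67, adjusted p = 0.0171, and 2.41, adjusted p = 0.0808 with sums per clone, 2.10, adjusted p = 0.0536 without WT solvent 27-1 and 1.95, adjusted p = 0.0598 without mut solvent 65-2. LGR4, present at 56.7 to 65.5 CPM in WT solvent, fell in WT at all 3 times (-0.45, -0.54 and -0.51) and was not called in mut. RSPO2, the one R-spondin tested, had at most 0.548 CPM and no call.

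The ubiquitin ligase RNF43 was lower in mut in all 4 states (-0.45 in solvent, -0.47 after 6 h, -0.33 after 24 h and -0.48 after 72 h). Its libraries held 23.6, 25.6, 22.99 and 22.4 CPM in WT solvent and 16.1, 16.9, 17.8 and 18.4 CPM in mut solvent, with no overlap. It was called lower at 24 h of TGFβ1 in WT (-0.44) and in mut (-0.32), the mut call being lost with TMM factors. ZNRF3, its relative, held 25.6 to 28.4 CPM in WT solvent, and its calls in WT at 24 and 72 h (-0.27 and -0.22) were lost with TMM factors.

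Among the secreted antagonists, DKK1, which blocks LRP5 and LRP6, was lower in mut cells in all 4 states. The libraries held 87.6, 54.7, 87.6 and 163 CPM in WT solvent and 22.3, 28.4, 25.9 and 12.95 CPM in mut solvent, 75.99, 72.7, 67.3 and 124 and 32.7, 15.6, 29.8 and 17.4 CPM after 6 h, 118, 126, 62.9 and 147 and 37.8, 29.02, 35.8 and 21.9 CPM after 24 h, and 132, 164, 101 and 163 and 84.7, 63.3, 67.2 and 32.2 CPM after 72 h. No mut library reached a WT library of the same time, and within WT the replications of clone 27 differed by more than those of clone 2 in all 4 states. The difference was -2.09 ± 0.35 in solvent, -1.86 ± 0.35 after 6 h, -1.82 ± 0.33 after 24 h and -1.23 ± 0.30 after 72 h (adjusted p = 0.00013, 0.000281, 0.000105 and 0.00196). In mut cells DKK1 rose at 72 h (1.46 ± 0.36, adjusted p = 0.00333), when its libraries lay above all mut solvent libraries. The WT change at 72 h was 0.59 ± 0.30, adjusted p = 0.0942, and adjusted p = 0.00572 with the series as a replicate block.

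SFRP1 held 868 to 969 CPM in WT solvent and 829 to 971 CPM in mut solvent, and at 72 h 721 to 954 and 997 to 1237 CPM. It was called higher in mut at 72 h of TGFβ1 (0.29 ± 0.09, adjusted p = 0.0149) and higher in mut than in WT at that time (0.36 ± 0.09, adjusted p = 0.00162), when every mut library exceeded every WT library. The interaction at 72 h (0.39 ± 0.12, adjusted p = 0.0385) was lost with TMM factors, edgeR, DESeq2, sums per clone and without the series 1-2. It was also lost without any one of 9 libraries (WT solvent 2-1, 2-2 and 27-1, WT 72 h 27-1 and 27-2, mut solvent 1-2 and 65-2, mut 72 h 1-1 and 65-1), with adjusted p-values of 0.0541 to 0.0925. DKK3 was called in no comparison and differed strongly between the libraries of a clone, with 0.946, 0.252, 0.126 and 2.76 CPM in WT solvent and 3.31, 5.58, 0.659 and 11.5 CPM after 72 h. The change in WT at 72 h was 2.72 ± 1.20, adjusted p = 0.0581, and the replicate block by series gave adjusted p = 2.44e-06. DKK2 lay at 0.0996 to 1.51 CPM over all libraries.

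Of the cytoplasmic inhibitors, NKD1, which binds the Dishevelled adaptor, rose in mut cells from 0.677, 0.719, 0.547 and 0.704 CPM in solvent to 1.55, 1.98, 1.57 and 1.70 CPM after 72 h without overlap (1.36 ± 0.32, adjusted p = 0.00264), with a call at 24 h as well (0.94), which was lost in 7 of 8 fits that each left out 1 library. In WT it held 1.31, 1.06, 1.32 and 0.602 CPM in solvent and 1.40, 0.891, 1.63 and 0.809 CPM after 72 h, which overlapped (0.11 ± 0.32, adjusted p = 0.8), and the interaction at 72 h was 1.25 ± 0.45, adjusted p = 0.0687. AXIN1, the scaffold of the β-catenin destruction complex, was higher in mut than in WT at 6, 24 and 72 h (0.44, 0.32 and 0.27), the last call being lost with TMM factors. AXIN2, which is widely used as a readout of β-catenin activity, stayed at 0.0380 to 0.529 CPM over all libraries and was called in no comparison (WT at 72 h 0.93 ± 0.64, adjusted p = 0.231, mut at 72 h 0.51 ± 0.64, adjusted p = 0.607).

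Of the transcription factors, TCF7L1, which often acts as a repressor, rose in both genotypes. The WT libraries held 4.23, 5.52, 5.60 and 5.69 CPM in solvent, 9.98, 10.7, 10.4 and 11.1 after 24 h and 11.3, 12.6, 11.03 and 10.1 after 72 h, and the mut libraries 2.73, 3.19, 3.70 and 3.34, 6.07, 3.996, 6.22 and 6.95 and 5.96, 7.33, 7.05 and 8.45 CPM. Within each genotype the libraries at 24 and 72 h exceeded those of solvent, and at each of these times mut lay below WT. In WT the change of TCF7L1 was 1.01 ± 0.15, adjusted p = 1.21e-06 after 24 h and 1.10 ± 0.14, adjusted p = 3.85e-07 after 72 h, and the mut change 1.14 ± 0.17, adjusted p = 1.1e-05 after 72 h. Mut was called lower in all 4 states (-0.69, -0.75, -0.89 and -0.66). TCF7 was called higher in WT at 24 and 72 h (0.81 and 0.72) and in mut at 72 h (0.88), but these calls were lost in 3, 7 and 4 of the 8 fits that each left out 1 library. TCF7L2, at 33.03 to 39.97 CPM in WT solvent, and LEF1, at 5.52 to 8.64 CPM, were called in no comparison.

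Between the genotypes, mut cells had less of WNT5A, WNT7A, WNT7B, DKK1, ROR1, FZD2, FZD3, RNF43 and TCF7L1 and more of FZD1 and FZD4 before TGFβ1. These 11 calls among 42 WNT genes (2 higher and 9 lower, 26.2%) stood beside 12.7% of all genes (6.38% higher and 6.32% lower). After TGFβ1 there were 18 calls at 6 h (6 higher and 12 lower, beside 11.3% and 10.0% of all genes), 17 at 24 h (7 and 10, beside 24.7% and 12.2%) and 18 at 72 h (9 and 9, beside 26.0% and 13.2%). In all, 21.4%, 36.9% and 39.2% of all genes were called at these times. At 24 and 72 h the share of WNT genes called (40.5% and 42.9%) was close to that of all genes. The medians of the WNT genes were -0.12, -0.07, 0.02 and 0.09 on the log2 scale in the order of the times, beside -0.01, 0.02, 0.09 and 0.10 for all genes. Of the 12 ligands, 7 were called at each time after TGFβ1, WNT6 and WNT10A higher and WNT3, WNT5A, WNT7A, WNT7B and WNT9A lower.

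Whether the TGFβ1 response itself differed between the genotypes was tested by the interaction, which subtracts the change in WT from that in mut. At 6 h 0 of 42 WNT genes were called by limma-voom (5 had an unadjusted p under 0.05, edgeR called 0 and DESeq2 2), beside 0.0740% of all genes. The 2 genes called by DESeq2 were WNT7B and WNT9A, both lower. At 24 h 5 were called (LRP5 and WNT10B higher, WNT5A, WNT7B and WNT9A lower, 11.9% beside 9.65% of all genes, 7.72% higher and 1.93% lower), and at 72 h 6 (FZD6, LGR6, LRP5, SFRP1 and WNT10B higher and WNT9A lower, 14.3% beside 12.3%, 9.40% higher and 2.92% lower). With TMM factors 3 genes were called at 24 h (all lower) and 3 at 72 h (2 of them higher). Under the replicate block by series there were 11 calls at 24 h, with DKK3 and WNT3 lower and FZD6, NKD1, ROR1 and WNT10A higher in addition, and 16 at 72 h, with DKK3, WNT5A and WNT7B lower and DKK1, FZD2, FZD3, LGR4, NKD1, ROR1 and WNT10A higher in addition. At 24 h WNT9A alone was called without the series 1-2, and the count was 1 without mut solvent 1-2, 2 without mut 24 h 1-2, and 3 without mut solvent 65-1 or 65-2 or mut 24 h 1-1 or 65-2. At 72 h it was 3 without WT solvent 27-1 or mut solvent 65-2.

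The other genes of the pathway were read from the same fit. Of 42 genes listed for the intracellular core, the extracellular and membrane regulators and the planar polarity branch, 38 were tested. In WT at 72 h 12 were called higher and 8 lower (52.6% beside 52.2% of all genes), and in mut 7 and 4 (28.9% beside 24.1%), shares close to those of all genes. DAAM1 (0.91 in WT and 0.58 in mut), an effector of planar polarity signalling, and PRICKLE2 (1.21 and 0.82) rose, and PRICKLE1 (-1.51 and -1.74) fell in both genotypes. The Dishevelled adaptor DVL1 rose in both (0.55 and 0.59), as did the glypican GPC4 (0.65 and 1.19). CTNNB1, which encodes β-catenin, rose in WT (0.36) and changed by -0.06 in mut without a call, and KREMEN2, a receptor of DKK1, fell in WT (-1.07). The interaction at 72 h was called for 4 of the 38 (10.5% beside 12.3% of all genes), namely CTNNB1 (-0.42, adjusted p = 0.00918) and BCL9 (-0.42) lower and KREMEN2 (0.95) and RYK (0.34) higher. The median of the 38 genes was 0.02 in WT and -0.03 in mut at 72 h.

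Of 14 genes listed as β-catenin targets, 8 of them members of the WNT genes above, 12 were tested. In WT at 72 h 3 were called higher (CCND1, TCF7 and TNFRSF19) and 2 lower (MYC and ZNRF3), with a median of 0.18 (5 of 12 called, 41.7% beside 52.2% of all genes), and in mut 4 higher (CCND1, DKK1, NKD1 and TCF7) and 2 lower (APCDD1 and MYC), with a median of 0.26 (6 of 12 called, beside 24.1% of all genes). Lower in mut than in WT in solvent were DKK1, RNF43 and CCND1 (-0.39), and APCDD1, a membrane inhibitor of WNT signals, was higher (1.90). MYC fell by 1.01 on the log2 scale in WT and by 0.34 in mut at 72 h, and its interaction was called (0.67, adjusted p = 0.000517). TNFRSF19 stayed under 1 CPM on average in WT.

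Over all 13 comparisons of the main fit 35 of the 42 tested WNT genes (83.3%) were called at least once, beside 75.7% of all genes, and AXIN2, DKK2, DKK3, LEF1, RSPO2, TCF7L2 and WNT5B were called in none. For 122 of the 167 called values the call held whichever single library was left out, 45 lost it in at least 1 such fit, and 0 changed sign. Beside those described above, calls lost in 4 to 7 of 8 such fits were, in WT, those of TCF7L1, FZD8 and WNT3 at 6 h and of AXIN1, WNT4, WNT7B and ZNRF3 at 72 h, in mut those of FZD3 and FZD4 at 6 h and of FZD2, FZD5 and LGR6 at 24 h, and between the genotypes those of FZD7 and WNT3 at 6 h. Calls lost in 1 to 3 of 8 were, in WT, those of FZD5 at 6 h, of AXIN1, FZD2, FZD8, PORCN, WLS and ZNRF3 at 24 h and of LRP6 and WNT2B at 72 h, in mut those of RNF43 and ROR1 at 24 h and of SFRP1 at 72 h, and between the genotypes those of FZD3 at 6 h, RNF43 at 24 h and AXIN1 at 72 h. Beyond those given above, omitting the series 1-2 ended the call of FZD3 in mut at 6 h. It ended those of FZD2, FZD3, FZD5, LGR6, NKD1, RNF43 and ROR1 in mut at 24 h and of SFRP1, TCF7 and WNT11 at 72 h. It also ended those of AXIN1 and WNT4 in WT at 72 h and of FZD7 and WNT3 between the genotypes at 6 h. Omitting the series 27-2 ended the WT calls of TCF7L1 at 6 h, ZNRF3 at 24 h and AXIN1, LRP6, TCF7, WNT2B and ZNRF3 at 72 h.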

How the data were processed

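RNA-seq read counts per gene, as the authors deposited them, are whole numbers and not normalized. The authors trimmed reads with Trimmomatic, aligned them to Ensembl GRCh38 with STAR and counted them there. The library kit (TruSeq RNA v2) marks no strand and the strand setting of the counting is not given in the sources used here, so that reads of overlapping and antisense genes cannot be told apart, which touches 14 of the 51 WNT genes. Every row summed to 4 or more counts over the libraries, and the rows covered 17788 genes, of which GENCODE release 44 (GRCh38) named 17763. Libraries of a group differed beyond counting noise (lowest chi-square over degrees of freedom 11.6), so that each was counted once. Floors cover counting error only.

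A low-count filter (edgeR 4.0.16, filterByExpr with a minimum count of 10 and a minimum total of 15) kept 14865 genes. Counts scaled by library size were fitted over all 32 libraries by limma-voom (limma 3.58.1, R 4.3.3, moderated by eBayes, with 1 coefficient per group). Tests were two-sided, p-values were adjusted over all genes by Benjamini-Hochberg, and genes with adjusted p under 0.05 are called. Adjusted p-values and log2 fold changes (± SE) come from this limma-voom fit unless another tool or setting is named. A member is named with its libraries where it was called with an absolute log2 fold change of at least 1 and a group mean of at least 1 CPM in that comparison. Other members described with their libraries were chosen after their values were seen. The members, lists and tests were chosen with earlier results of these data known. The fit was tested on simulated independent libraries without clones or series, so that this says nothing about the spread between clones.

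Alternatives were TMM factors, the quasi-likelihood test of edgeR, DESeq2 1.42.0, no low-count filter, sums per clone, the series or the replication number as a replicate block, omission of each library, omission of the series 27-2 and, chosen after seeing the data, omission of the series 1-2. Pairing by series follows the labels, since libraries of a series share their clone and replication number. Deviations from the group means correlated with a mean r of 0.346 (0.0225 to 0.721 over 48 pairs) within a series. The mean r was 0.0183 (-0.439 to 0.264) between replications of the same clone. It was -0.0995 between clones of the same replication and -0.249 between libraries that share neither clone nor replication. Motifs were searched in the 300 bases around each RefSeq start site (GRCh38.p14).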

Additional observations from a re-analysis of the deposited data

Results flagged for a closer look

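In 98 groups of 4 libraries looked at for the named genes, 5 single libraries lay far from the other 3 by the Dixon criterion. The criterion was applied on the log scale, and chance gives about 1 in 20. These were WNT9A in WT solvent 2-2 (5.26 CPM, the others 12.1 to 13.2), WNT5A in mut solvent 1-2 (4.78 CPM, the others 2.53 to 2.71), WNT7B in WT 72 h 27-2 (11.9 CPM, the others 6.32 to 6.94), TCF7L1 in WT solvent 2-1 (4.23 CPM, the others 5.52 to 5.69) and FZD2 in mut 24 h 65-2 (10.6 CPM, the others 14.99 to 16.03). The library mut solvent 1-2 also had the highest FN1 and WNT7A of its group, and the part of this library in the WNT5A result was not tested beyond its removal.

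The response to TGFβ1 differed between the genotypes by the interaction test of limma for 11 values, each the change in mut less that in WT on the log2 scale. For WNT9A, with 62.8 to 79.3 CPM in WT and 14.7 to 20.8 CPM in mut after 24 h, it was -1.40 at 24 h and -1.39 at 72 h. For WNT5A it was -1.22 and for WNT7B -1.71, both at 24 h. For WNT10B it was 1.77 at 24 h and 1.60 at 72 h. For LRP5 it was 0.40 at 24 h and 0.53 at 72 h. At 72 h it was also 2.41 for LGR6, 0.38 for FZD6 and 0.39 for SFRP1. With TMM factors the calls of LRP5 at 24 h, of WNT10B at both times and of FZD6 and SFRP1 were lost. The same calls were lost with edgeR, and sums per clone ended them and those of WNT7B and LGR6. Leaving out 1 library ended, in at least 1 fit, those of LRP5 at 24 h, WNT5A, WNT7B, WNT10B, LGR6 and SFRP1. The calls of WNT9A at both times and of LRP5 at 72 h held in all of these checks.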

How the results depend on the processing

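None of the 167 called values of the WNT genes changed sign when a library was left out, and none of the 62 named ones did so under the other alternatives. The number called among the 42 tested moved by over 1.5 times as follows. For mut cells at 6 h (3 in the main test) it was 1 with edgeR, 8 under the replicate block by series, 1 with sums per clone, and 1 to 7 when single libraries were left out. For mut at 24 h (14) it was 9 with sums per clone, 8 without the series 1-2, and 7 to 12 when single libraries were left out. For the interaction at 6 h (0) DESeq2 called 2. For the interaction at 24 h (5) it was 3 with TMM factors, 11 under the replicate block by series, 2 with sums per clone, 1 without the series 1-2, and 1 to 7 when single libraries were left out. For the interaction at 72 h (6) it was 3 with TMM factors, 16 under the replicate block by series, 2 with sums per clone, and 3 to 9 when single libraries were left out. The ranges without single libraries were 8 to 14 (12), 23 to 25 (26) and 16 to 21 (22) in WT, 13 to 15 (15) in mut at 72 h, and 11 to 12 (11), 15 to 18 (18), 17 to 19 (17) and 18 to 21 (18) for mut against WT, in the order of the times and with the main count in parentheses. The replication number as a replicate block gave 13, 18, 18 and 18 calls for mut against WT. The ligand sum in WT solvent was 7.89 CPM per kb with TMM factors (8.34 without). The cause of these shifts was not tested. Of the 62 named values, 472 of 496 refits kept their call and 24 lost it, all for LGR6, WNT10A, WNT10B, WNT5A and WNT7B. WNT6, WNT11 and WNT4 stayed under 1 CPM, where depth limits the precision, and 2 clones per genotype limit every comparison of mut with WT.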
